A study of Mus musculus with 14 samples.

Results

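The scr RNA-seq library of LEPC cells held 18328 assembled loci, of which 14647 had at least 1 FPKM, that is fragments scaled to transcript length and to library depth. Of these, 1411 (9.63%) overlapped none of the 35640 listed mm9 gene loci by even 1 bp, and they are called unlisted loci here. The other 13236 loci, called gene-overlapping loci, are what they are compared with. The level in scr chose the unlisted loci, so their scr FPKM is a description. Just inside the minimum stood chr2:44842758-44843888, chr6:38561090-38561869 and chr6:125373970-125374468, each at 1.0 FPKM in scr. Just outside it stood chr6:6507224-6507863 at 1.0 FPKM once rounded, chr10:116389845-116390414 at 0.999 FPKM and chr7:133924212-133924711 at 0.998 FPKM.

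LEPC is a mouse cell line, labelled as strain C57BL/6 and 3 passages. Cells overexpressed miR-93-5p (called miR-93-5p), overexpressed a mutant of it (called mutant) or had the genotype scr, the control, and all were grown in DMEM with serum and antibiotics. RNA-seq was made from all 3 conditions, and peak lists of H3K4me3, H3K27me3 and H3K9me3 from miR-93-5p and scr cells. Each condition had 1 library per assay, so no difference below has a replicate error or a p-value. The labels give neither the vector nor whether a line is 1 clone. The keratins Krt8 and Krt18, which mark epithelial cells, were matched in every library, with Krt8 at 230 FPKM in miR-93-5p, 283 FPKM in mutant and 658 FPKM in scr. Hnf4a, a hepatocyte transcription factor, was at 7.22 FPKM in miR-93-5p, 27.4 FPKM in mutant and 40.6 FPKM in scr. Cdh1, an epithelial adhesion protein, had 1.52 FPKM in miR-93-5p, 3.87 FPKM in mutant and 30.7 FPKM in scr, and the leukocyte marker Csf1r 1.16 FPKM in miR-93-5p, 1.82 FPKM in mutant and 7.63 FPKM in scr. All 5 markers with a value in each library were thus highest in scr, while the epithelial Krt19, at 418 FPKM in miR-93-5p and 522 FPKM in mutant, had no matched locus in scr. Epcam, also epithelial, had 0.84 FPKM in scr and was matched in neither other library. Of the other leukocyte markers, Cd68 had 1.56 FPKM in scr alone and Ptprc was matched in none. Of the other hepatocyte markers, Alb had 1.08 FPKM in mutant and 1.3 FPKM in scr, Ttr had 2.04 FPKM in mutant and 0.969 FPKM in scr, neither was matched in miR-93-5p, and Afp and Apoa1 were matched in none. The part of these markers in the results below was not tested. None of the 3 endothelial and none of the 4 mesenchymal markers had a matched locus in any library. In this line fewer transcribing cells and less RNA per cell cannot be told apart.

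A locus of assembled RNA-seq reads outside an annotation can be a noncoding RNA, such as the host transcript of a microRNA, an extension or intron of a neighbouring gene, or a gene that the annotation in use does not hold. Trimethylation of histone H3 at lysine 4 (H3K4me3) marks the start of active genes, while H3K27me3 and H3K9me3 mark repressed chromatin. A mature microRNA pairs with its targets mainly through bases 2 to 8, its seed, and microRNAs that share a seed form a family.

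For many of the unlisted loci RefSeq has a gene that the list does not name between the same neighbours, so the loci are called by what they do not overlap and not as unannotated. The table with the listed genes also held 861 numbered loci without a gene name, with a median span of 27502 bp, and 526 unlisted loci (37.3%) overlapped one. In addition, chr8:122400889-126881137, an interval of 4.48 Mb, had no listed locus of either kind and 81 unlisted loci (5.74%). The remaining 804 (57.0%) overlapped neither. Chromosome 8 had the highest share of unlisted loci, 144 of 837 (17.2%), against 6.14% to 12.3% on the other chromosomes. The 3 classes were made after the data were seen. Names were sought through RefSeq, by asking which of its genes lie between the same neighbours. A protein-coding gene absent from the list stood between the same flanking listed genes for 490 of the 526, for all 81 and for 128 of the 804, in all 699 (49.5%). For 386 (27.4%) the genes between the flanks were of other biotypes alone, such as lncRNAs and pseudogenes, and for 296 (21.0%) there was none. Checked on 3758 listed genes, the same search found 3694 (98.3%). It places a gene between neighbours and not on the locus, so each such gene is a candidate.

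Of the 526 loci, 260 had exactly 1 protein-coding candidate, naming 182 genes. The promoters of 3 with the highest levels are shown because an H3K4me3 peak lay on each of these loci in miR-93-5p and scr cells. Each line is the 250 bases before the RefSeq start (GRCm38.p6, read on the gene's strand, chr9:78481725-78481974 minus for Eef1a1, chr2:32961462-32961711 plus for Rpl12 and chr17:24719813-24720062 plus for Rps2), with the GC box GGGCGG and the TATA box TATAAA in capitals on either strand. Their reverse complements are CCGCCC and TTTATA.
Eef1a1: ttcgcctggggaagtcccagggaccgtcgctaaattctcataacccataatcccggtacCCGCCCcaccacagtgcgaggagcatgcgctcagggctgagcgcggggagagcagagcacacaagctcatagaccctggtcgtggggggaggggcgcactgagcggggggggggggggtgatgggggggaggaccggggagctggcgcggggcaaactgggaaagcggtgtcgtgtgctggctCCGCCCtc
Rpl12: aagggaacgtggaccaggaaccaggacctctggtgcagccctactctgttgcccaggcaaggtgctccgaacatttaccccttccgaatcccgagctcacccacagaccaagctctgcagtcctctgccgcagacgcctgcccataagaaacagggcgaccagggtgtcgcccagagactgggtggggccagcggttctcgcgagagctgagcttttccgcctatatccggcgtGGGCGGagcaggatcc
Rps2: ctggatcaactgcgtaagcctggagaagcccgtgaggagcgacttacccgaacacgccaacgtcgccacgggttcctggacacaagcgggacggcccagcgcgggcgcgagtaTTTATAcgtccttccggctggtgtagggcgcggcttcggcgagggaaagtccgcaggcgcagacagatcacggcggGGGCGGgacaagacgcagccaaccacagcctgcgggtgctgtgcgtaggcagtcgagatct
The GC box occurred 2 times before Eef1a1, 1 time before Rpl12 and 1 time before Rps2, and the TATA box 1 time, before Rps2. The pentamer CCAAT, searched with its complement ATTGG, was in none of the 3 windows. Over 165 such windows of 121 candidate genes with an scr H3K4me3 peak on their locus, 61.2% held the GC box, 4.85% the TATA box and 34.5% CCAAT. Over the 24 windows of 18 candidate genes with no such peak the shares were 41.7%, 8.33% and 33.3% for the same motifs. Over all 32851 windows of the RefSeq table they were 32.7%, 12.4% and 33.8%. A match describes letters and not a bound site, and the peaks, on mm9, were not placed on these windows.

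Some unlisted loci stood where RefSeq puts microRNAs. Mature sequences are shown because 1 such locus has the Mir17 cluster between its flanks, which holds microRNAs with the seed of miR-93-5p, and another has Mir21a (RefSeq, GRCm38.p6, seed bases 2 to 8 in capitals). The cluster gives miR-17-5p, miR-20a-5p, miR-18a-5p, miR-19a-3p, miR-92a-3p and miR-19b-3p. The last has the seed of miR-19a-3p and is not printed.
miR-93-5p: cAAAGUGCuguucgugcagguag
miR-17-5p: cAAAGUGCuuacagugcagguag
miR-20a-5p: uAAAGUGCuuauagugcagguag
miR-18a-5p: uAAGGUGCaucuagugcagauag
miR-19a-3p: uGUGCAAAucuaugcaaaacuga
miR-92a-3p: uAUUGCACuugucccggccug
miR-21a-5p: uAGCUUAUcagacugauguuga
The first 3 share the seed AAAGUGC, and the other 4 do not.

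Unlisted loci were shorter and lower than gene-overlapping loci. Their median span was 1493 bp, against 14274 bp for gene-overlapping loci, and ranged from 109 to 292919 bp. Their median scr level was 2.31 FPKM, against 10.0 FPKM for gene-overlapping loci. The deposited bounds of an FPKM were turned into implied fragments, the size of a fragment count that has the same relative error, with a median of 48.7 for unlisted loci and 533 for gene-overlapping loci. Below 2 FPKM stood 630 unlisted loci (44.6%), against 13.5% of gene-overlapping loci. The classes differed widely. The 526 loci over unnamed table loci had a median of 5920 bp and 8.11 FPKM, the 81 of the chromosome 8 interval 9792 bp and 9.56 FPKM, and the remaining 804 had 932 bp and 1.66 FPKM with 30.0 implied fragments. Of all 1411, 718 (50.9%) lay within 5 kb of a listed gene and 354 within 1 kb. Of the 13236 gene-overlapping loci, 6129 (46.3%) lay within 5 kb of another listed gene, which they did not overlap, and 2785 within 1 kb. The 5 kb shares were thus near each other. Of the 296 with no RefSeq gene between their flanks, 247 lay within 5 kb and 128 within 1 kb of a listed gene.

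**Figure D1:**
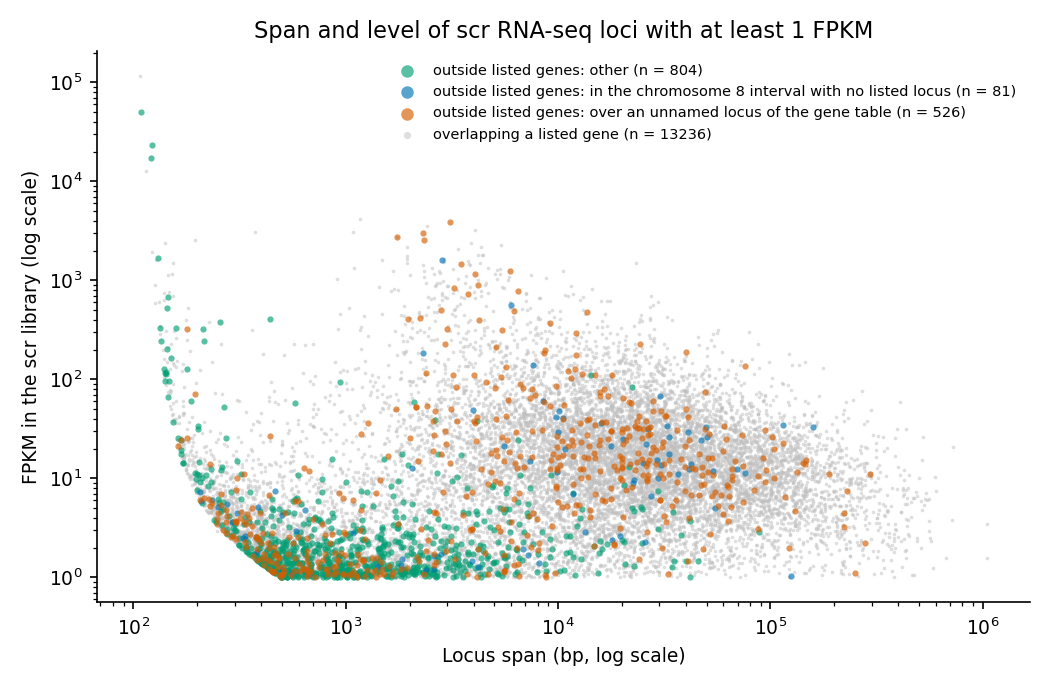
Span in bp (x axis, log scale) and FPKM in the scr library (y axis, log scale) of each locus with at least 1 FPKM, coloured by class. The 526 loci over unnamed table loci and the 81 of chromosome 8 spread over the range of the 13236 gene-overlapping loci, while most of the remaining 804 lie low and left, with a median of 932 bp and 1.66 FPKM.

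The highest FPKM values came from 2 kinds of locus. The first was very short, where a high FPKM rested on few implied fragments and does not rank the locus against longer ones. A locus of 109 bp at chr10:45595773-45595881, between Hace1 and Gm23481, had 41300 FPKM (bounds 25400 to 57200) in miR-93-5p, 34900 FPKM (23400 to 46400) in mutant and 49900 FPKM (31100 to 68800) in scr. It rested on 26.9, 36.7 and 28.0 implied fragments in miR-93-5p, mutant and scr. The Eef1a1 candidate, of 3099 bp and at 3850 FPKM in scr, rested on 258000 there. A locus of 122 bp at chr1:104524783-104524904 had 9350 FPKM in miR-93-5p, 42000 FPKM in mutant and 23500 FPKM in scr, on 181, 321 and 190 implied fragments in that order. The log2 ratio of miR-93-5p over mutant was -2.17 in FPKM and -0.45 in scaled implied fragments, so the 2 measures part at such short loci. A locus of 121 bp at chr16:17222419-17222539, between Rimbp3 and Hic2, went the other way in FPKM, with 46700 in miR-93-5p, 13600 in mutant and 17300 in scr. Its log2 ratio of miR-93-5p over mutant was 1.78 in FPKM and -0.5 in fragments, so the direction rests on the measure. The 131 bp locus chr10:7242423-7242553 had 724 FPKM in miR-93-5p, 25 FPKM in mutant and 1690 FPKM in scr, on 49.3, 61.1 and 55.1 implied fragments. In all, 17 unlisted loci spanned at most 150 bp, with a median of 205 FPKM, a median of 17 implied fragments and scr levels from 67.1 to 49900 FPKM. None of the 17 overlapped an H3K4me3 peak in either condition, and 0 of 17 allows a share of up to 17.6%, taking 3 counts of 17 as the limit.

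The second kind was at candidate protein-coding genes of high expression. The locus chr9:78326366-78329464 between Mto1 and Slc17a5, where RefSeq has Eef1a1, the translation elongation factor that brings tRNAs to the ribosome, had 4110 FPKM (4090 to 4120) in miR-93-5p, 4190 FPKM (4180 to 4210) in mutant and 3850 FPKM (3830 to 3860) in scr. The Rpl12 candidate chr2:32817207-32819520 had 1690 FPKM (1620 to 1770) in miR-93-5p, 2120 FPKM (2030 to 2210) in mutant and 3020 FPKM (2990 to 3050) in scr. The Rps2 candidate chr17:24857068-24858812 had 2090 FPKM (2070 to 2110) in miR-93-5p, 2430 FPKM (2420 to 2450) in mutant and 2760 FPKM (2640 to 2880) in scr. These 2 genes encode ribosomal proteins, and the FPKM of both stood lowest in miR-93-5p and highest in scr, with bounds that did not overlap between libraries. In fragments the direction was kept in 1 comparison and turned in the other. For Rps2 the log2 ratio of miR-93-5p was -0.36 over mutant and 4.46 over scr, against -0.22 and -0.4 in FPKM. For Rpl12 it was 0.3 over mutant and -4.24 over scr, against -0.32 and -0.83 in FPKM. The 4.46 rests on 51300 implied fragments in miR-93-5p and 2270 in scr, over spans of 1750 and 1740 bp. Implied fragments can lie far below the real number, so these ratios are not ratios of read counts. The Ftl1 candidate chr7:52713312-52716812, the light chain of the iron store ferritin, had the same order, with 918 FPKM in miR-93-5p, 1060 FPKM in mutant and 1450 FPKM in scr. At chrX:71516062-71518405, with Emd and Rpl10 as candidates, the level was 1760 FPKM in miR-93-5p, 1640 FPKM in mutant and 2560 FPKM in scr. The highest locus of the chromosome 8 interval, chr8:125626272-125629111, had 1060 FPKM in miR-93-5p, 1760 FPKM in mutant and 1600 FPKM in scr, so scr was highest at the first of these 2 loci and mutant at the other. RefSeq has 76 protein-coding genes between the flanks of that interval, so its loci were given no candidate.

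Of the single candidates, 7 were ribosomal protein genes, with scr levels from 326 to 3020 FPKM. The Rpl19 candidate chr11:97888039-97891804 had 743 FPKM (734 to 751) in miR-93-5p, 2150 FPKM (2130 to 2170) in mutant and 736 FPKM (728 to 744) in scr. The Rpl21 candidate chr5:147644479-147647470 had 426 FPKM in miR-93-5p, 1710 FPKM in mutant and 326 FPKM in scr. Both were high in mutant alone, and the Rpl19 locus spanned 3600 bp in miR-93-5p, 3570 bp in mutant and 3770 bp in scr. In implied fragments, however, miR-93-5p over mutant was only -0.38 for Rpl19 and -0.71 for Rpl21 (log2, scaled), against -1.53 and -2.01 in FPKM. The Rpl30 candidate had 844 FPKM in miR-93-5p, 788 FPKM in mutant and 831 FPKM in scr. The Rplp2 candidate had 511 FPKM in miR-93-5p, 633 FPKM in mutant and 397 FPKM in scr. The Rps20 candidate had 897 FPKM in scr and overlapped loci of up to 1370 FPKM in miR-93-5p and 1400 FPKM in mutant, but was matched one to one in neither.

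Other single candidates at high levels had roles across the cell. Rack1, a scaffold protein of the ribosome, was at 1240 FPKM in miR-93-5p, 1440 FPKM in mutant and 1230 FPKM in scr. The chaperone Hspa8 was at 1000 FPKM in miR-93-5p, 996 FPKM in mutant and 1170 FPKM in scr, and the levels of both stayed within 1.5-fold across the libraries. The cytoplasmic actin Actg1 was at 613 FPKM in miR-93-5p, 594 FPKM in mutant and 501 FPKM in scr, and the RNA helicase Ddx5 at 235 FPKM in miR-93-5p, 220 FPKM in mutant and 197 FPKM in scr. Stmn1, which destabilises microtubules, was at 205 FPKM in miR-93-5p, 192 FPKM in mutant and 312 FPKM in scr, so both overexpressing libraries lay below scr. Of the 33 single candidates with at least 50 FPKM in scr, all 33 overlapped an H3K4me3 peak in miR-93-5p and in scr. Of gene-overlapping loci at that level, 94.6% did in miR-93-5p and 94.6% in scr. Of the 32 matched in the 3 libraries, 29 differed by under 1.5-fold between miR-93-5p and mutant. In miR-93-5p 0 of the 32 reached 2 times the mutant level, against 2.06% of matched gene-overlapping loci with at least 10 FPKM in scr. Below it by 2-fold or more lay 3, against 2.22% of those gene-overlapping loci. The third beside Rpl19 and Rpl21 was Pcolce, an enhancer of procollagen processing, with 132 FPKM in miR-93-5p, 414 FPKM in mutant and 59.2 FPKM in scr, over spans of 16300 bp in miR-93-5p, 14500 bp in mutant and 8600 bp in scr. Its log2 ratio of miR-93-5p over mutant was -1.64 in FPKM and 0.04 in fragments.

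**Figure D2:**
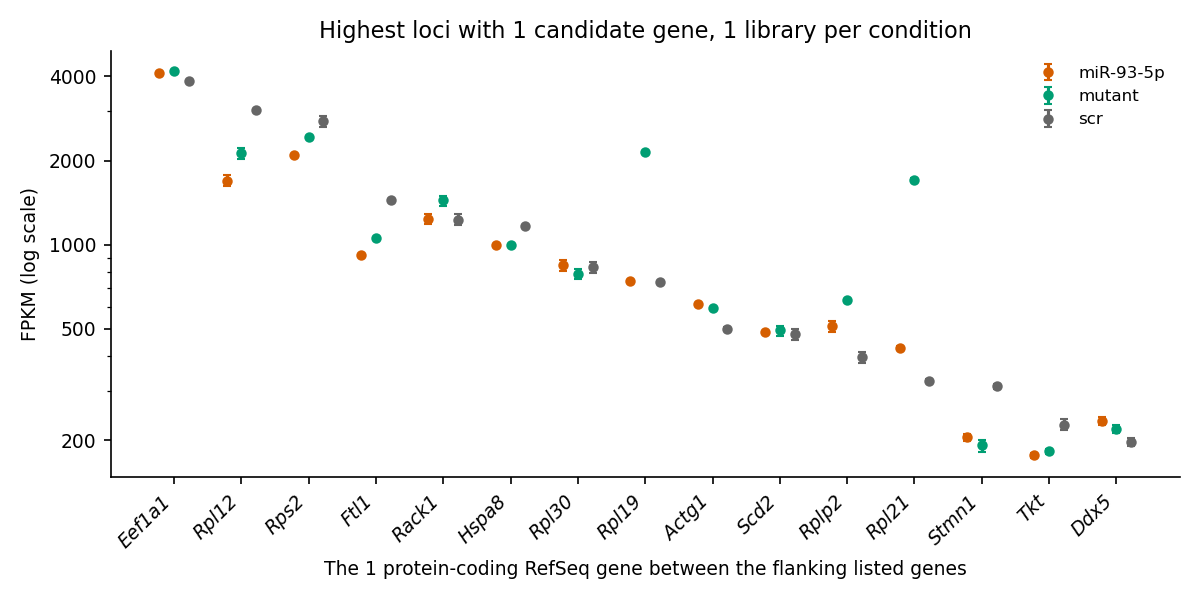
FPKM (y axis, log scale) of the 15 highest loci with 1 candidate gene that were matched in all 3 RNA-seq libraries, with the deposited bounds as bars and 1 library per condition. Eef1a1 lies between 3850 and 4190 FPKM in every library, while Rpl19 and Rpl21 stand high in mutant at 2150 and 1710 FPKM.

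The 5 longest unlisted loci were also at candidate genes. The longest, chr12:76918959-77211877 (292919 bp), has Syne2, a nuclear envelope protein, and the predicted gene Gm40447 between its flanks and was at 6.85 FPKM in miR-93-5p, 5.46 FPKM in mutant and 11.2 FPKM in scr. The Efna5 candidate chr17:62952971-63230853, an ephrin ligand, was at 4.07 FPKM in miR-93-5p, 3.43 FPKM in mutant and 2.23 FPKM in scr. Scr was thus highest at the Syne2 locus and lowest at the Efna5 locus. The Tnrc6b candidate chr15:80541409-80771406, a partner of Argonaute in silencing by microRNAs, had 7.22 FPKM (0.52 to 13.9) in miR-93-5p, 6.46 FPKM (6.21 to 6.72) in mutant and 7.47 FPKM (7.11 to 7.82) in scr, and the wide bound in miR-93-5p covers the other 2 values. The Vps13d candidate chr4:144562539-144784898, of a family of lipid transfer proteins, was at 3.71 FPKM in miR-93-5p, 2.65 FPKM in mutant and 3.21 FPKM in scr. The Nos1ap candidate chr1:172268365-172519687, an adaptor of nitric oxide synthase, was at 1.09 FPKM in mutant and 1.12 FPKM in scr, with no overlapping locus in miR-93-5p. Each of the 5 overlapped an H3K4me3 peak with the score of 3100 in miR-93-5p and in scr.

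H3K4me3 peaks overlapped 691 unlisted loci (49.0%, exact 95% interval 46.3 to 51.6) in miR-93-5p cells and 684 (48.5%, 45.8 to 51.1) in scr cells. Of gene-overlapping loci 77.5% had one in miR-93-5p cells and 77.6% in scr cells. These intervals cover counting error, and loci are not replicates of a condition. The share was 66.5% in both conditions for the loci over unnamed table loci. It was 72.8% in miR-93-5p and 74.1% in scr for the chromosome 8 interval, and 35.1% in miR-93-5p and 34.1% in scr for the remaining 804.

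The share went with span. Of unlisted loci over 20 kb, 91.5% overlapped an scr peak, against 96.2% of gene-overlapping loci of that size. From 1 to 5 kb the scr shares were 42.1% for unlisted loci and 63.2% for gene-overlapping loci. Up to 300 bp the order turned, with 29.5% (20.6 to 39.7) of 95 unlisted loci and 14.9% (11.8 to 18.4) of 478 gene-overlapping loci, and from 300 to 1000 bp it was 27.5% (23.5 to 31.7) and 18.7% (16.8 to 20.7). The share also went with level, from 27.1% of unlisted loci at 1 to 2 FPKM to 83.7% at 10 to 50 FPKM in scr, against 35.6% and 92.9% of gene-overlapping loci at the same levels. FPKM and mark parted among the remaining 804. Of their 30 loci with at least 50 FPKM, 4 (13.3%) overlapped an scr peak, with a median span of 146 bp, against 67 of 68 (98.5%) at that level over unnamed table loci, with a median span of 6554 bp. Of the 296 loci with no RefSeq gene between their flanks, 89 (30.1%) overlapped an scr peak.

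**Figure D3:**
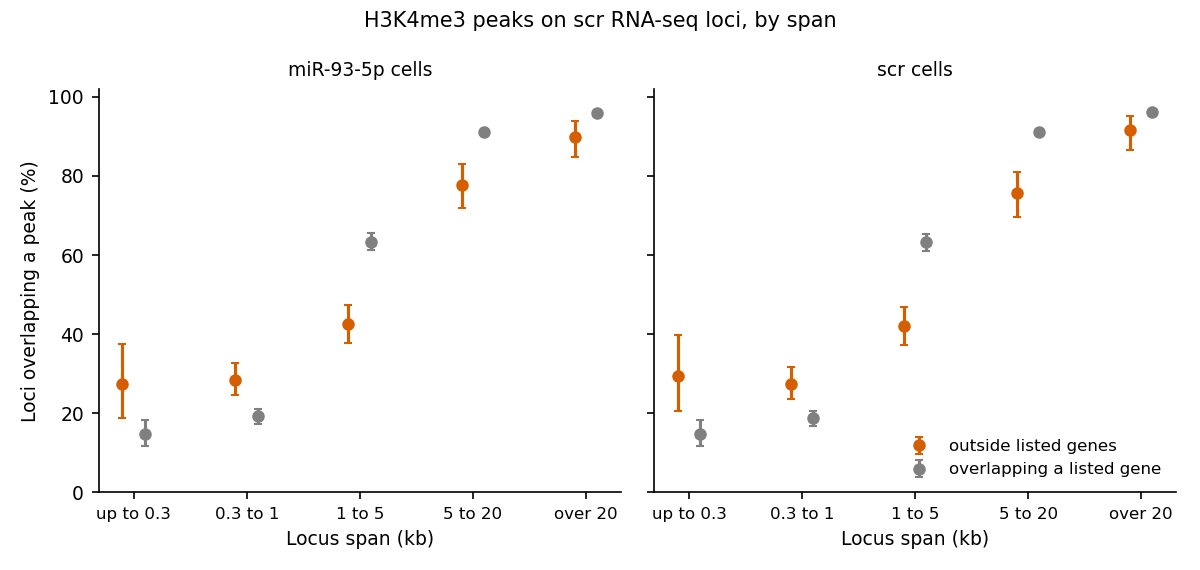
Percent of loci that overlap an H3K4me3 peak (y axis) by locus span in kb (x axis), in miR-93-5p cells (left) and scr cells (right), for unlisted and gene-overlapping loci, with exact 95% binomial intervals as bars. Unlisted loci lie above gene-overlapping loci up to 1 kb and below them over 1 kb, in both conditions.

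By peak score in scr cells, which reaches 3233.06 with 8721 peaks tied at 3100, the top unlisted locus was chr2:25258586-25264943, with Entpd2 and Npdc1 as candidates, at 3209.12. Its level was 41.6 FPKM in miR-93-5p, 15.6 FPKM in mutant and 29.3 FPKM in scr, but its log2 ratio of miR-93-5p over mutant was 1.41 in FPKM and -1.21 in fragments. Next were the C1galt1c1 candidate chrX:35984211-35988321, a chaperone of O-glycan synthesis, at 3126.51, chr4:116381155-116387699 (candidates Ccdc163 and Tesk2) at 3115.51 and chr13:67413967-67461530 (zinc finger genes Zfp595 and Zfp953) at 3110.45. The fifth, the Eef1a1 candidate, was chosen by its FPKM among the tied loci.

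Of the unlisted loci, 17 overlapped an H3K4me3 peak in miR-93-5p cells and not in scr cells, where 0.621% of all 14647 scr loci did (1.2% of unlisted loci). The reverse held for 10, where 0.628% of all scr loci did (0.709% of unlisted loci). The largest in level among the 10 was chr2:75478892-75480981, with Hnrnpa3 among the candidates, at 25.9 FPKM in miR-93-5p, 48.5 FPKM in mutant and 59.2 FPKM in scr, under an scr peak of score 89.69. The Igsf5 candidate chr16:96583209-96625600, a junctional protein of epithelia, had an scr peak of score 138.14, no overlapping RNA-seq locus in miR-93-5p, 2.16 FPKM in mutant and 6.72 FPKM in scr. Among the 17, chr7:82913932-82925645 between Akap13 and Klhl25 had a miR-93-5p peak of score 3100 and 6.07 FPKM in miR-93-5p, 5.2 FPKM in mutant and 7.07 FPKM in scr. These examples were chosen after their values were seen.

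The repressive marks were rarer. H3K9me3 peaks overlapped 147 unlisted loci (10.4%) in miR-93-5p and 111 (7.87%) in scr, against 15.0% and 11.9% of gene-overlapping loci in miR-93-5p and scr. The lists held 25879 H3K9me3 peaks in miR-93-5p and 15888 in scr. H3K27me3 peaks overlapped 9 unlisted loci (0.638%) in miR-93-5p and 18 (1.28%) in scr, against 1.75% and 2.43% of gene-overlapping loci in miR-93-5p and scr. The part of list length in these shares was not tested.

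Most unlisted loci were also assembled in the other libraries. An overlapping locus was present for 1145 (81.1%, 79.0 to 83.2) in miR-93-5p and for 1240 (87.9%, 86.1 to 89.5) in mutant, and none was present for 266 (18.9%) in miR-93-5p and 171 (12.1%) in mutant. Of all 14647 scr loci, 5.85% had none in miR-93-5p and 4.38% none in mutant. Summed implied fragments, which can understate the real number, came to 15301761 in miR-93-5p, 19513879 in mutant and 14589704 in scr, and the part of sequencing depth in these shares was not tested. The shares went with level. Of unlisted loci at 1 to 2 FPKM in scr, 68.9% were found in miR-93-5p and 77.9% in mutant, against 79.6% and 84.5% of gene-overlapping loci in miR-93-5p and mutant. At 10 to 50 FPKM they were 95.5% in miR-93-5p and 98.0% in mutant. By class, the miR-93-5p library held 92.8% and the mutant library 94.7% of the loci over unnamed table loci. Of the remaining 804, miR-93-5p held 72.1% and mutant 82.2%. The locus that overlapped an unlisted locus reached into a listed gene for 178 (12.6%) in miR-93-5p and for 199 (14.1%) in mutant.

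**Figure D4:**
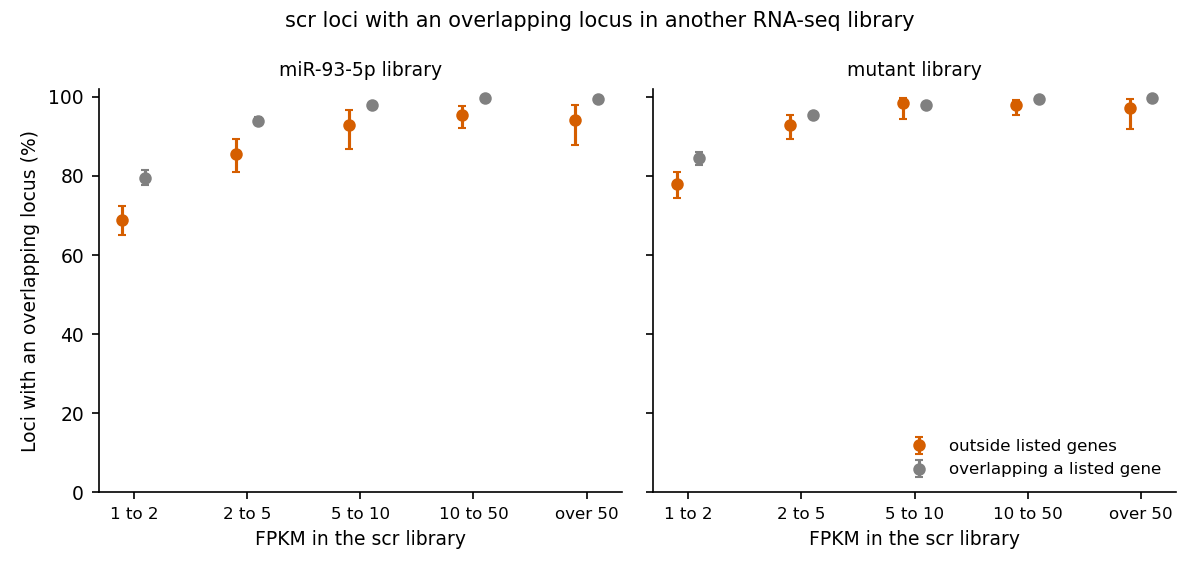
Percent of scr loci with an overlapping locus (y axis) in the miR-93-5p library (left) and the mutant library (right) by scr FPKM (x axis), for unlisted and gene-overlapping loci, with exact 95% binomial intervals as bars. Of unlisted loci, 68.9% were found in miR-93-5p at 1 to 2 FPKM and 94.2% at 50 FPKM or more.

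Neither other library held a locus for 127 unlisted loci (9.0%), where 3.11% of all scr loci had none in both. Their median was 1.34 FPKM on 16.0 implied fragments, 104 rested on under 50, and 111 were among the remaining 804. Among the 127, 9 rested on at least 100 implied fragments, and 4 of these are named here, chosen after their values were seen. At chr3:96312737-96319199, between Rnu1b6 and Hjv, the level was 24.7 FPKM in scr on 4400 implied fragments, with no H3K4me3 peak, and tRNA genes were among the RefSeq genes between the flanks. The Klhl13 candidate chrX:22796422-22942229, an adaptor of a ubiquitin ligase, was at 13.9 FPKM (13.0 to 14.8) in scr on 1010 fragments. It overlapped an H3K4me3 peak of score 81.9 in scr and none in miR-93-5p. At chr9:103106506-103132625, with Srprb and Trf, the iron carrier transferrin, as candidates, the level was 9.78 FPKM in scr with no H3K4me3 peak in either condition. The fourth, chr11:86392279-86397626 between Tubd1 and Gm11478, where RefSeq has Mir21a, was at 2.91 FPKM (2.63 to 3.19) in scr on 428 fragments and overlapped H3K4me3 peaks of score 3100 in miR-93-5p and in scr. With 1 library per condition, an absent locus says that none was assembled there.

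Of the unlisted loci, 638 (45.2%) were matched one to one in all 3 RNA-seq libraries, meaning that the locus in one library and that in the next overlapped best with one another and shared at least 0.5 of their joint length. Ratios are log2 of FPKM plus 0.1. The comparison of miR-93-5p with mutant does not use the scr level. There 37 unlisted loci (5.8%) stood above the mutant level by 2-fold or more in miR-93-5p, and 37 (5.8%) below it. Of all 10532 matched loci 2.8% were higher and 2.63% lower. The median log2 ratio was 0.03 for the 638 and 0.01 for all matched loci. Among gene-overlapping loci under 10 FPKM in scr, which are nearer in level, 3.51% were higher and 2.76% lower, against 7.44% and 4.76% of unlisted loci under 10 FPKM. At 10 FPKM or more the lower side was the larger among unlisted loci, with 3.97% higher and 6.95% lower, against 2.06% and 2.22% of gene-overlapping loci. Very short loci were on both sides, with ratios that scaled implied fragments did not keep. The log2 ratio was 4.85 in FPKM and 0.04 in fragments at chr10:7242423-7242553, and -2.33 and -0.46 at chr15:37118693-37118842. Because FPKM divides by a transcript length that each library assembled for itself, scaled implied fragments were asked to pass 2-fold too. Of the 618 with at least 3 in each library, 24 were higher and 53 lower in miR-93-5p by fragments alone, so the equal split by FPKM was not kept. Of all 10155 matched loci with such fragments, 527 were higher and 643 lower, so the lower side was the larger there too. By both measures, 7 were higher and 15 lower in miR-93-5p, where 0.778% and 1.24% of all matched loci were. At 10 FPKM or more in scr, 1 (0.339%) was higher and 6 (2.03%) lower of 295 by both measures. Of gene-overlapping loci at that level, 0.38% were higher and 0.793% lower. The chromosome 8 interval gave 1 of the 7 and 3 of the 15.

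**Figure D5:**
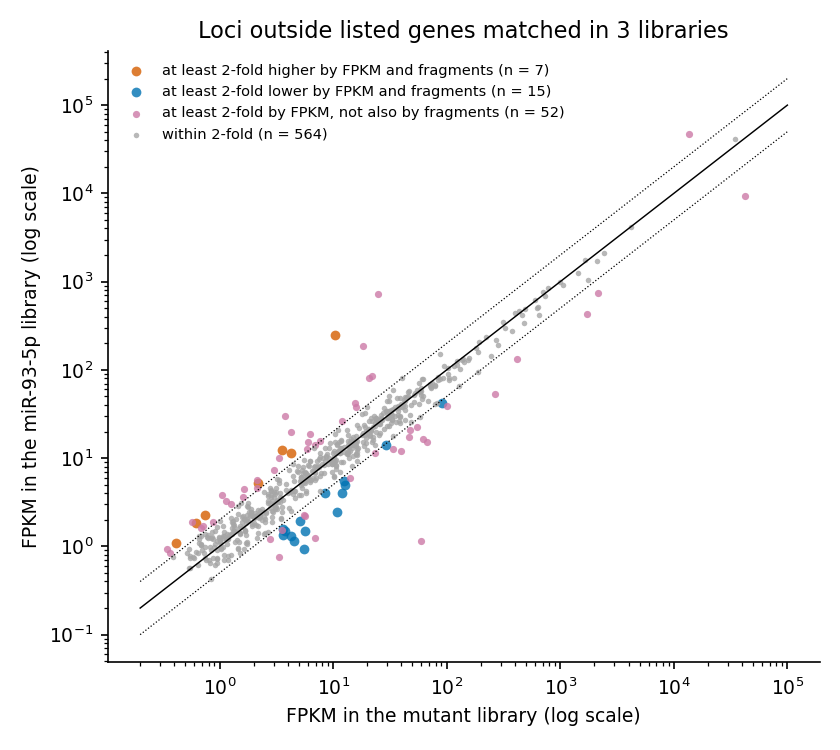
FPKM in the miR-93-5p library (y axis, log scale) against the mutant library (x axis, log scale) for the 638 unlisted loci matched in all 3 RNA-seq libraries, with 1 point per locus. The solid line marks equal levels and the dotted lines 2-fold. Most points lie between the dotted lines, and 7 orange and 15 blue points pass 2-fold in both measures.

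The 5 largest of the 7 began with chr2:121279041-121284160 between Pdia3 and Mfap1b, with Ell3, Serf2, Serinc4 and Hypk as candidates. It had 245 FPKM (234 to 257) in miR-93-5p, 10.4 FPKM (9.69 to 11.0) in mutant and 19.4 FPKM (18.3 to 20.5) in scr. The log2 ratio of miR-93-5p over mutant was 4.55 in FPKM but 1.29 in fragments, and the locus spanned 8960 bp in miR-93-5p, 4840 bp in mutant and 5120 bp in scr. The 2 measures were close for chr6:100756698-100760812 between Gxylt2 and Ppp4r2, with no RefSeq gene between them, at 12.5 FPKM (11.8 to 13.2) in miR-93-5p, 3.55 FPKM (3.24 to 3.85) in mutant and 4.73 FPKM (4.31 to 5.14) in scr. Its log2 ratio over mutant was 1.79 in FPKM and 1.7 in fragments, its span was 4110 bp in miR-93-5p, 4080 bp in mutant and 4120 bp in scr, and it had no H3K4me3 peak. The next, chr6:3283222-3296031 before Samd9l, was at 2.29 FPKM in miR-93-5p, 0.752 FPKM in mutant and 1.53 FPKM in scr. The Cd74 candidate chr18:60963529-60972217, the invariant chain of class II antigen presentation, had 1.84 FPKM (1.35 to 2.33) in miR-93-5p, 0.625 FPKM (0.347 to 0.904) in mutant and 1.06 FPKM (0.667 to 1.46) in scr, on 56.0, 20.2 and 29.0 fragments in that order. At chr8:122729542-122752033 it was 11.4 FPKM in miR-93-5p, 4.23 FPKM in mutant and 8.93 FPKM in scr. In 6 of the 7 the scr level lay between the other 2.

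The 5 largest of the 15 began with chr8:126267762-126281184, at 0.933 FPKM (0.625 to 1.24) in miR-93-5p, 5.58 FPKM (4.63 to 6.54) in mutant and 2.85 FPKM (2.27 to 3.44) in scr. Its log2 ratio of miR-93-5p over mutant was -2.46 in FPKM but -1.32 in fragments. It overlapped 6 loci in miR-93-5p, of up to 1.29 FPKM, and 3 in mutant. At chr7:20256935-20263321 between Clptm1 and Apoc1, the candidates include Apoc2 and Apoc4, apolipoproteins made by the liver. This locus had 2.48 FPKM (1.48 to 3.47) in miR-93-5p, 10.9 FPKM (9.52 to 12.3) in mutant and 12.8 FPKM (11.1 to 14.6) in scr, on 25, 246 and 212 implied fragments in that order, and miR-93-5p alone was low. The log2 ratio over mutant was -2.1 in FPKM and -2.53 in fragments, and no H3K4me3 peak overlapped it in either condition. The locus chrX:105859097-105860371 before Brwd3 was at 1.16 FPKM in miR-93-5p, 4.52 FPKM in mutant and 2.15 FPKM in scr. Between Impg1 and Htr1b, chr9:80575560-80610316 was at 1.51 FPKM in miR-93-5p, 5.62 FPKM in mutant and 4.62 FPKM in scr. The last, chr17:27341591-27342152 next to Lemd2, was at 1.32 FPKM in miR-93-5p, 4.22 FPKM in mutant and 2.21 FPKM in scr, under H3K4me3 peaks of score 3100 in miR-93-5p and in scr. In 8 of the 15 the scr level lay between the other 2.

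Against scr, which chose the loci, the counts are a description. In miR-93-5p 28 of the 638 (4.39%) were higher by 2-fold or more and 61 (9.56%) lower, where 3.73% and 5.43% of all matched loci were. In mutant 28 (4.39%) were higher and 52 (8.15%) lower, where 3.42% and 5.42% of all matched loci were. The classes differed on the lower side. Of the 328 over unnamed table loci, 14 (4.27%) were lower in miR-93-5p and 13 (3.96%) in mutant. Both shares lay below those of all matched loci. Of the 53 in the chromosome 8 interval, 5 (9.43%) were lower in miR-93-5p and 2 (3.77%) in mutant. Of the 257 in neither class, 42 (16.3%) were lower in miR-93-5p and 37 (14.4%) in mutant. By fragments alone, over all classes, miR-93-5p had 30 higher and 63 lower of 618, and mutant 41 higher and 41 lower. Of all 10155 matched loci with such fragments, 696 were higher and 803 lower in miR-93-5p, and 753 higher and 708 lower in mutant. By FPKM and fragments together, miR-93-5p had 9 higher and 26 lower of 618, where 1.69% and 2.99% of all matched loci were, and mutant had 12 higher and 17 lower, where 1.58% and 2.44% were. Both comparisons share the scr library, and a minimum on the scr level keeps loci that stood high there.

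At the microRNA loci, chr14:115443482-115445917, which has the Mir17 cluster with its host transcript Mir17hg between its flanks Tpm3-rs7 and Gpc5, had 2.16 FPKM (1.76 to 2.56) in miR-93-5p, 2.91 FPKM (2.52 to 3.3) in mutant and 2.38 FPKM (1.98 to 2.79) in scr. The bounds of neighbouring values overlapped, and the locus had no H3K4me3 peak. The other RefSeq genes between those flanks were lncRNAs and pseudogenes. At chr16:84714472-84714983, with Mir155 and Mir155hg among the candidates, the level was 0.94 FPKM (0.484 to 1.4) in miR-93-5p, 0.54 FPKM (0.251 to 0.828) in mutant and 1.16 FPKM (0.487 to 1.83) in scr. The Mir101a locus chr4:101017942-101019548 was at 0.863 FPKM in miR-93-5p, 0.619 FPKM in mutant and 1.3 FPKM in scr. None of these 3 had a level apart from both other libraries beyond the bounds.

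Among long noncoding RNAs, Snhg20 (with Mir6516) lay between the flanks of chr11:116938128-116940264, which had 70.5 FPKM (61.7 to 79.2) in miR-93-5p, 57.5 FPKM (53.0 to 62.0) in mutant and 52.5 FPKM (47.6 to 57.3) in scr. Lockd, known for its position downstream of the cell cycle inhibitor Cdkn1b, was the 1 candidate of chr6:134879089-134901446. That locus had 80.1 FPKM (71.5 to 88.7) in miR-93-5p, 40.8 FPKM (36.8 to 44.8) in mutant and 83.1 FPKM (74.7 to 91.6) in scr. Mutant alone was low in FPKM, but the log2 ratio of miR-93-5p over mutant was 0.97 in FPKM and 0.08 in fragments. Both loci overlapped H3K4me3 peaks of score 3100 in miR-93-5p and in scr, and these microRNA and noncoding examples were chosen after their values were seen.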

How the data were processed

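The RNA-seq tables give FPKM for each locus and its confidence bounds, per the file headers, and each library's loci were assembled by the authors from its own reads. TopHat2, Cufflinks, Cuffdiff, CASAVA 1.4, Bowtie, MACS and mm9 are named per the submitters' processing notes, without settings. The deposited peak lists give a score per peak, from 50 upward, with each library called separately. The gene loci come from the mRNA pulldown tables, where all have an FPKM of 0. Printed starts count from 1.

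Unlisted loci, overlaps of at least 1 bp, mutual best matches, log2 ratios with a pseudocount of 0.1 FPKM and exact binomial intervals (95%) were computed with Python 3.11.15, pandas 2.3.3, numpy 2.4.6 and scipy 1.17.1, and figures with matplotlib 3.10.9. Overlap, matching and ratio code was tested on simulated data. Implied fragments are the squared ratio of the FPKM to its distance from the upper bound, times 4. Because bounds also widen where isoforms share reads, they can lie far below the real number, as at the Rpl12 locus, with 2140 in miR-93-5p, 2220 in mutant and 39700 in scr. They were scaled to a median ratio of 1, with 10 added. RefSeq (GRCm38.p6) was used for names, gene order and printed sequences, and 139 of the 182 single candidate genes had a promoter there.

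Named loci were the 10 highest and 5 longest, the 5 largest rises and falls of miR-93-5p over mutant, the 5 highest H3K4me3 scores and the 3 nearest each side of the minimum. The members and lists were chosen with earlier results of these data known. Input and pulldown levels were not analysed here.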

Additional observations from a re-analysis of the deposited data

How the results depend on the processing

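The number of unlisted loci was 2732 with a minimum of 0.5 FPKM, 781 with 2 FPKM, 476 with 5 FPKM, 693 with gene loci widened by 5 kb and 804 without the loci over unnamed table loci and on chromosome 8, a setting added after the data were seen, as wherever it is used here. The H3K4me3 share was 52.8% in miR-93-5p and 52.4% in scr for peaks within 1 kb, 45.5% in both for widened genes, 65.9% in miR-93-5p and 65.7% in scr from 2 FPKM, and 35.1% in miR-93-5p and 34.1% in scr without both classes. The share with an overlapping locus was 54.3% in miR-93-5p and 56.8% in mutant by one-to-one match, 71.6% in miR-93-5p and 72.4% in mutant with at least 1 FPKM there, 72.1% in miR-93-5p and 82.2% in mutant without both classes, and 90.9% in mutant for widened genes. Of the 638 matched loci, 395 shared at least 0.9 of their length. These gave 14 higher and 16 lower for miR-93-5p over mutant, 13 and 28 for miR-93-5p over scr, and 12 and 19 for mutant over scr. With a pseudocount of 1, 20 were higher and 29 lower for miR-93-5p over mutant, 24 and 41 for miR-93-5p over scr, and 24 and 28 for mutant over scr. With this pseudocount and with the 0.9 overlap, all matched loci were not counted, so these counts have no share to compare with. By implied fragments, 24 were higher and 53 lower for miR-93-5p over mutant, and 41 higher and 41 lower for mutant over scr. Without both classes 257 were matched, with 21 higher (8.17%) and 19 lower (7.39%) for miR-93-5p over mutant. For miR-93-5p over scr 11 were higher (4.28%) and 42 lower (16.3%). For mutant over scr 10 were higher (3.89%) and 37 lower (14.4%). The 10 loci named for miR-93-5p over mutant were chosen for passing 2-fold in FPKM and fragments alike, so their kept sign is no test. With a pseudocount of 1, chr6:3283222-3296031 (0.91) and chr18:60963529-60972217 (0.8) were under 2-fold. Elsewhere the sign could turn by fragments, as for miR-93-5p over mutant at the Rpl12 locus and miR-93-5p over scr at the Rps2 locus. The cause was not tested. No paired analysis was possible because each condition had 1 library, and for the same reason no replicate could be left out. The remaining 804 loci rest on a median of 30.0 implied fragments, and 104 of the 127 not found elsewhere on under 50.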
